A study of Mus musculus with 80 samples.

Results

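Dopaminergic neurons are not the cells that a preparation of the substantia nigra pars reticulata (SNr) aims at, but 4 of the 80 single cells analysed here, all of them GFP-negative, carried the transcripts of dopaminergic neurons. They were compared with 62 GFP-positive GABAergic neurons of the same preparation. All cells came from C57Bl/6 mice of the GAD1-EGFP line, in which EGFP marks cells that use Gad1, and were picked singly with a pipette from the dissociated SNr. Cells 44 and 48, named by their sample titles, came from mice at postnatal day 14 and cells 75 and 86 from mice at postnatal day 16. Of the 62 GABAergic cells, 9 were from day 14, 20 from day 15, 24 from day 16 and 9 from day 20. No treatment separated the groups, and the labels name no animal, so each side counts as 1 sample and no p-value or standard error was computed from cells.

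The 4 dopaminergic cells were chosen by their level of Th among the 8 GFP-negative cells, as those above 100 TPM, the deposited FPKM scaled to a total of 1000000 in each cell. The lowest Th inside this limit was 4742 TPM in cell 44, and the highest outside it was 7.73 TPM in cell 68. The GABAergic cells were chosen by their number of genes, as those of the 72 GFP-positive cells with more than 5000 genes above 1 TPM. Cell 35 with 5094 genes lay just inside that limit and cell 63 with 4426 genes just outside. Because the sides were chosen on these measured values, every difference between them is given below as a description. The level of a gene is given in TPM, which accounts for transcript length, and a difference is that of the mean log2(TPM + 1), dopaminergic minus GABAergic. This scale understates the change of genes with low values.

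Dopaminergic neurons make dopamine from tyrosine in 2 steps, by tyrosine hydroxylase (Th) and then by aromatic amino acid decarboxylase (Ddc). They load it into vesicles with the vesicular monoamine transporter (Slc18a2) and take it up again with the dopamine transporter (Slc6a3). Their cell bodies lie mainly in the pars compacta, next to and partly scattered within the SNr. The GABAergic neurons of the SNr make GABA with 2 glutamate decarboxylases (Gad1 and Gad2), load it into vesicles with Slc32a1, and fire fast and without synaptic input.

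The promoters of the 4 dopamine genes and of both glutamate decarboxylases are shown because these genes make, store and take up dopamine or make GABA. Each is the 250 bases before the RefSeq start of the gene, build GRCm38.p6, written 5′ to 3′ along the gene. Capitals mark any of 4 motifs searched on either strand, namely the NR4A2 response element (NBRE, AAAGGTCA), a PITX3 element (TAATCC), the GATA element AGATAA with its common variant TGATAA and the cyclic AMP response element (CRE, TGACGTCA). The search for the CRE was added after the promoters had been seen.
Th, chr7:142899996-142900245 (minus strand): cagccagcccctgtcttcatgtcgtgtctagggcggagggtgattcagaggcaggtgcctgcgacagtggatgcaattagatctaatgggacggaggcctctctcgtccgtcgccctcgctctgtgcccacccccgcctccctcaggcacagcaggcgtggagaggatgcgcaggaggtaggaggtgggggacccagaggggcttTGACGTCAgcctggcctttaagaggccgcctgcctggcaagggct
Ddc, chr11:11898145-11898394 (minus strand), first of 2 starts: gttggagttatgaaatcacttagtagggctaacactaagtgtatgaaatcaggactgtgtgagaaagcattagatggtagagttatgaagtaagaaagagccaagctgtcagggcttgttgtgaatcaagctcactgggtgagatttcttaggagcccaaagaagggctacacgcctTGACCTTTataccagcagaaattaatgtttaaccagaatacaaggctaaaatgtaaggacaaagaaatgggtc
Slc6a3, chr13:73536497-73536746 (plus strand): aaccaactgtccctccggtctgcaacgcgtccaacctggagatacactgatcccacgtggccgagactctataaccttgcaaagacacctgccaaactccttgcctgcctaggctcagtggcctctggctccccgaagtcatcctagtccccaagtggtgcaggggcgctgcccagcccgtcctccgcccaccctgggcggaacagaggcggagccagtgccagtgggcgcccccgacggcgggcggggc
Slc18a2, chr19:59260628-59260877 (plus strand): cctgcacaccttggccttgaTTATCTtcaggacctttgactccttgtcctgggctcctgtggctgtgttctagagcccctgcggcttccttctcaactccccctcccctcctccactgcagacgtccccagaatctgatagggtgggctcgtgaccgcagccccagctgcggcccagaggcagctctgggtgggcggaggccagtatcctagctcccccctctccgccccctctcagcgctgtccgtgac
Gad1, chr2:70561879-70562128 (plus strand): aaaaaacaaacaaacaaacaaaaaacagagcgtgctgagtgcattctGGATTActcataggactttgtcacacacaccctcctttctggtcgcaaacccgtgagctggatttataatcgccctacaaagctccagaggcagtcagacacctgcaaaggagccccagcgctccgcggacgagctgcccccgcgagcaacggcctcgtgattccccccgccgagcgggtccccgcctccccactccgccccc
Gad2, chr2:22622077-22622326 (plus strand): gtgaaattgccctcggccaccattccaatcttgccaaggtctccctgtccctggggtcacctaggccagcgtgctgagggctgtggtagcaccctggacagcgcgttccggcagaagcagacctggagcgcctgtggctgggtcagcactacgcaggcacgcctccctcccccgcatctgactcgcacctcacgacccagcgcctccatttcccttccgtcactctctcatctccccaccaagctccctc
The capitals in Th are a CRE that begins 45 bases before the start, and those in Ddc an NBRE on the opposite strand that begins 73 bases before it. In Slc18a2 they are a GATA element 230 bases before the start, and in Gad1 a PITX3 element 203 bases before it, both on the opposite strand. A further CRE of Slc18a2 begins 4 bases before the start and spans it. Its first 4 bases end the printed stretch and are not in capitals. The other Ddc start held none of the 4 motifs, and the bases that follow the Slc18a2 start were found in none of the transcripts that GENCODE M21 gives the gene. Of all 32851 RefSeq promoters, 1.79% held the CRE, 1.51% the NBRE, 7.06% the PITX3 element and 18.6% a GATA element in their 300 bases. Among the 13449 promoters of the genes compared, the set from which calls come, these shares were 2.95%, 0.952%, 5.58% and 10.7%. Among the 255 promoters of genes called higher in the dopaminergic cells (191 of 256 such genes had one), they were 2.35%, 1.18%, 8.63% and 8.63%. Among the 705 promoters of genes called lower they were 3.26%, 0.426%, 4.54% and 9.22%. A match of letters is a description and shows no binding.

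The 4 cells differed more from each other in depth than in the dopamine genes. Cell 44 had 5174 genes above 1 TPM, cell 48 had 8859, cell 75 had 4478 and cell 86 had 9173, against 5094 to 10236 (median 8238) in the GABAergic cells. Cell 75 thus lies under the gene number that was asked of the GABAergic cells. The depth, estimated from the spacing of low values, was 153559 fragments in cell 44, 1595732 in cell 48, 867736 in cell 75 and 3914675 in cell 86, against 149888 to 6201135 in the GABAergic cells. For a transcript of 2 kb, 3 fragments, the limit that a count of 0 allows, stand for 20.4 TPM in cell 44, 2.17 in cell 48, 3.17 in cell 75 and 0.883 in cell 86, for counting error only. Of 14 genes that every cell uses, 1 was listed at 0 in cell 44, 2 in cell 75 and 0 in cells 48 and 86, so a value of 0 can be a missed transcript. Short noncoding genes held 3.60% to 7.22% of the TPM in the dopaminergic cells. In the GABAergic cells they held 0.268% to 85.62% (median 4.37%). A high share lowers the TPM of all other genes of that cell, because the total is fixed.

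**Figure D1:**
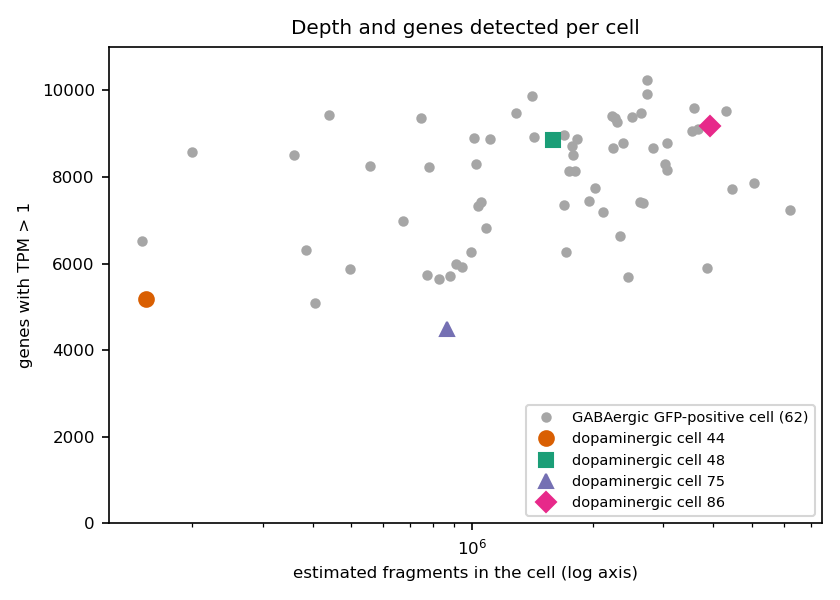
Number of genes above 1 TPM (y axis) against the estimated number of fragments (x axis, log scale) for the 62 GABAergic cells (grey) and the 4 dopaminergic cells (coloured). Cells 48 and 86 lie among the GABAergic cells. Cell 44, at 5174 genes, lies at their lower edge, and cell 75, at 4478 genes, below the lowest of them (5094 genes).

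Across the 14178 genes above 1 TPM in at least 4 of the 66 cells, 256 were called higher and 685 lower in the dopaminergic cells. A call needs a difference of at least 2 and all 4 dopaminergic cells on the same side of the GABAergic median. These are 1.81% and 4.83% of the genes compared, and the counts of each list below are to be read beside these shares. In 23 genes (0.162%) the lowest dopaminergic cell lay above the highest of the 62 GABAergic cells, and in 3 genes (0.0212%), Nefl, Gad2 and Epb4.1l3, the highest dopaminergic cell lay below the lowest GABAergic cell. Th, by which the dopaminergic cells were chosen, is among the 23. Of the 23, 11 remained when a gene had to be above 1 TPM in at least 10 cells in place of 4. The median difference of all genes compared was -0.30.

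The balance of higher and lower calls differed with the cells used. With only cells 48 and 86 on the dopaminergic side, a comparison added after the values had been seen, 1214 genes were higher and 479 lower, so that 71.7% of the calls were higher in place of 27.2%. When only the 15 GABAergic cells with the fewest genes were used, 602 genes were higher and 270 lower. Of the 685 genes called lower, 84.67% were listed at 0 in cell 44 and 83.94% in cell 75, but 38.54% in cell 48 and 32.26% in cell 86. The median difference of single cells was -0.69 in cell 44, 0.03 in cell 48, -0.81 in cell 75 and 0.10 in cell 86. The part of depth in the lower calls was not tested beyond these values. Of the 256 genes called higher, 250 were above 1 TPM in all 4 cells. A higher call requires each dopaminergic cell to exceed the GABAergic median, so the rule largely fixes this count.

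**Figure D2:**
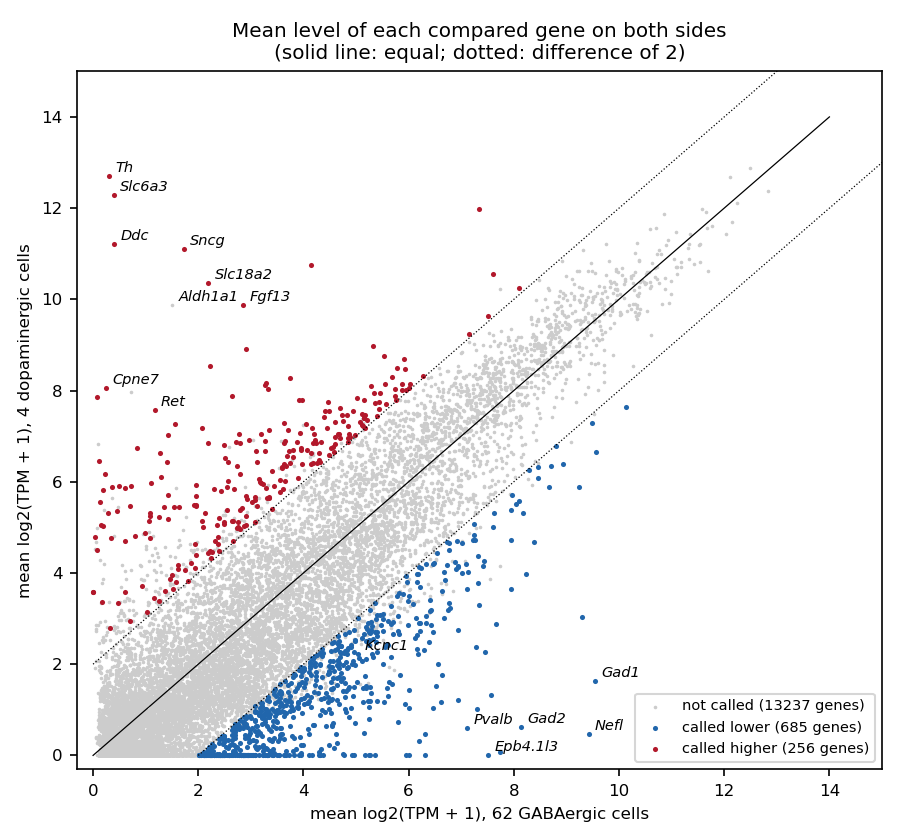
Mean log2(TPM + 1) of each of the 14178 genes in the 4 dopaminergic cells (y axis) against the 62 GABAergic cells (x axis), with 256 genes called higher in red, 685 called lower in blue and the rest in grey. Th, Slc6a3 and Ddc stand furthest above the line of equal means, and Nefl, Gad1 and Gad2 furthest below it among the labelled genes together with Epb4.1l3.

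Th, Slc6a3 and Ddc had the 3 largest differences of all genes compared. Th was at 4742 TPM in cell 44, 7578 in cell 48, 5927 in cell 75 and 9481 in cell 86, against a median of 0 and a highest value of 48.0 TPM in the GABAergic cells. The rule fixed this difference, 12.41. Slc6a3 was at 2289, 7078, 4947 and 7885 TPM in cells 44, 48, 75 and 86, against at most 70.6 TPM in the GABAergic cells, a difference of 11.89. For Ddc the 4 cells held 1891, 2855, 1561 and 3750 TPM and the highest GABAergic cell 177 TPM, a difference of 10.81. None of these genes overlapped between the sides, and cell 44 was lowest in Th and Slc6a3 and cell 75 in Ddc. Slc18a2 was at 637, 1724, 1368 and 1948 TPM, against a GABAergic range of 0 to 96.1 TPM (median 0.369), a difference of 8.16. It was above 1 TPM in 30 of the 62 GABAergic cells, whereas Th was in 4, Ddc in 5 and Slc6a3 in 5.

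The cofactor of tyrosine hydroxylase, tetrahydrobiopterin, is made from GTP by Gch1, Pts and Spr in turn, and all 3 were called higher. Gch1, its first enzyme, was at 15.6, 48.8, 59.0 and 22.5 TPM in cells 44, 48, 75 and 86, against a median of 0 and a highest value of 31.6 TPM in the GABAergic cells, a difference of 4.84. Pts differed by 2.05 and Spr by 2.55, but cells 48 and 86 for Pts and all 4 cells for Spr lay within the GABAergic ranges of up to 290 and 169 TPM. In all, 7 of the 12 genes of this list were higher and 0 lower, beside 1.81% and 4.83% of all genes compared. The 7 include Th, whose call was fixed by the choice of the cells. The median difference was 2.30. Gch1 was above 1 TPM in under 4 GABAergic cells. It was thus compared only through the dopaminergic cells, which largely fixed its call. The 5 others were not called. Among them, Qdpr, which recycles the cofactor, was at 405, 296 and 344 TPM in cells 44, 48 and 86 and listed at 0 in cell 75.

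**Figure D3:**
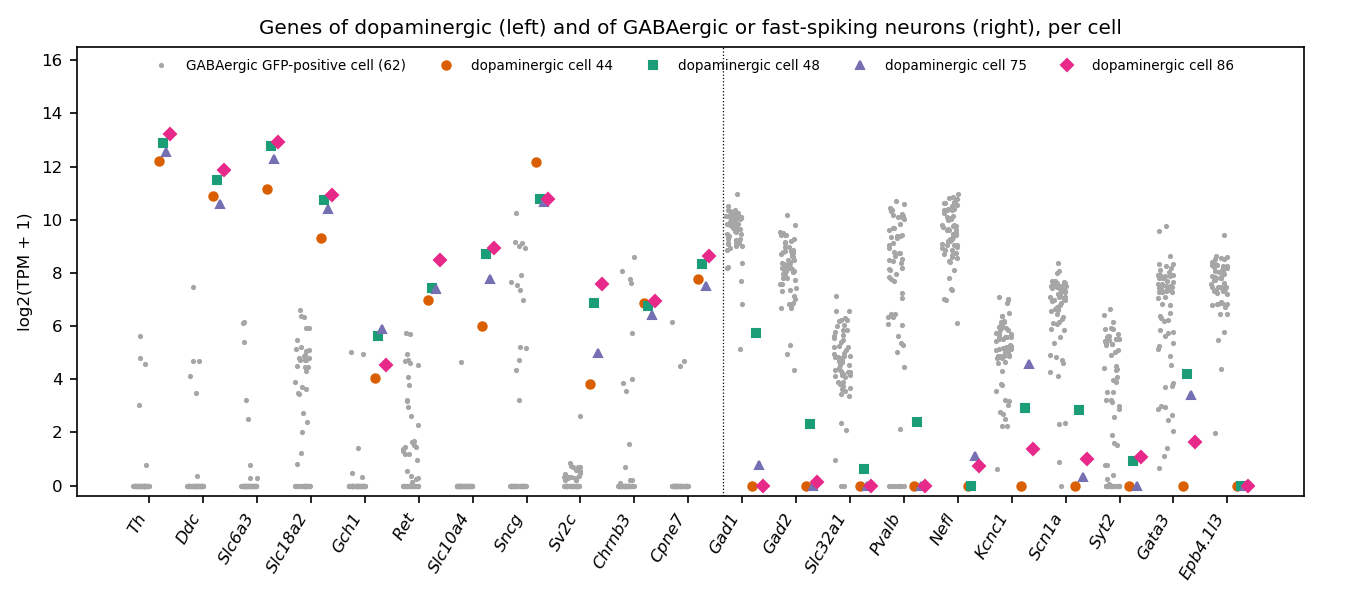
Level of 21 genes in log2(TPM + 1) (y axis) in each of the 62 GABAergic cells (grey) and in the 4 dopaminergic cells (coloured symbols), with genes of dopaminergic neurons left of the dotted line and genes of GABAergic or fast-spiking neurons and Epb4.1l3 right of it. Th, Ddc, Slc6a3, Slc18a2, Ret, Slc10a4, Sncg, Sv2c and Cpne7 do not overlap between the sides, nor do Nefl, Gad2 and Epb4.1l3, while Gad1 of cell 48 lies within the GABAergic range.

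Of 9 genes of dopamine breakdown and aldehyde clearance, 8 of them compared, 0 were called either way, and their median difference was -0.40. Maoa, a monoamine oxidase, was at 53.9, 102, 1.05 and 36.6 TPM in cells 44, 48, 75 and 86 (GABAergic median 2.35 TPM), and Maob was listed at 0 in all 4. With only cells 48 and 86, Maoa and Aldh1a1 were called higher, beside 1214 of all 14141 genes then compared.

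Among 14 transcription factors of midbrain dopaminergic neurons, of which 7 were among the genes compared, 3 were called higher and 0 lower. The shares over all genes compared were 1.81% and 4.83%, and the median difference of the 14 was 1.76. En1, a homeobox gene that dopaminergic neurons need to survive, was at 45.4, 33.1, 52.8 and 40.3 TPM in cells 44, 48, 75 and 86, a difference of 4.09, but the highest GABAergic cell reached 54.3 TPM. Satb1, a chromatin organiser, was at 174, 163, 67.2 and 144 TPM, and all 4 cells were above the highest GABAergic cell at 27.9 TPM. Nr4a2 (Nurr1), which drives Th, was at 246, 236 and 138 TPM in cells 44, 48 and 86 and listed at 0 in cell 75. No GABAergic cell exceeded 0.714 TPM of Nr4a2, which was therefore above 1 TPM in 3 of the 66 cells and outside the genes compared. Pitx3 was at 34.2 TPM in cell 44, 1.24 in cell 48, 0 in cell 75 and 1.55 in cell 86. Foxa1 was at 24.0 and 49.6 TPM in cells 48 and 86 and listed at 0 in the other two cells. Foxa2, Lmx1a, Lmx1b and Otx2 were at or near 0 in all 4 cells, with 1.81 TPM of Lmx1b in cell 86 as the highest value among them.

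Other genes known from midbrain dopaminergic neurons were higher in 8 of 18 cases (17 compared) and lower in 0, with a median difference of 4.76. Of all genes compared, 1.81% were higher and 4.83% lower. Sncg, gamma-synuclein, was at 4589, 1767, 1625 and 1764 TPM in cells 44, 48, 75 and 86, all above the highest GABAergic cell at 1227 TPM, a difference of 9.38. Cpne7, a calcium-dependent membrane-binding protein, differed by 7.81 and Slc10a4, a vesicular transporter of the bile acid carrier family, by 7.79. Cpne7 was at 218, 322, 179 and 396 TPM and Slc10a4 at 63.9, 417, 219 and 488 TPM, against highest GABAergic values of 70.5 and 24.0 TPM. Both were listed at 0 in the median GABAergic cell. Ret, the signalling receptor for GDNF, was at 125, 171, 166 and 355 TPM against at most 52.2 TPM, a difference of 6.40. Its co-receptor Gfra1 was at 15.8, 44.1, 0 and 79.5 TPM and was not called. Gucy2c, a guanylyl cyclase receptor, was at 14.6, 76.7, 3.42 and 111 TPM, and no GABAergic cell exceeded 0.62 TPM. Gucy2c was thus among the genes compared only through the dopaminergic cells, which largely fixed its call. The same holds for Cpne7 and Slc10a4, which were above 1 TPM in under 4 GABAergic cells.

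Receptor subunits and the dopamine autoreceptor were among these genes too. Chrnb3, a nicotinic acetylcholine receptor subunit, was even across the 4 cells at 116, 106, 85.0 and 123 TPM, a difference of 5.91, although the highest GABAergic cell had 388 TPM. Drd2, the D2 autoreceptor, was at 109, 52.9, 28.6 and 64.0 TPM (difference 5.26), and the highest GABAergic cell was at 87.6 TPM. Dlk1, a Notch-like ligand, was at 211, 0.744, 98.0 and 102 TPM, so its difference of 4.77 rested on 3 cells. Kcnj6, the GIRK2 channel often used to mark the ventral nigra, was at 53.9 TPM in cell 48 and 3.57 in cell 86 and listed at 0 in cells 44 and 75. The list was chosen for these neurons and overlaps others used here, so its count is no independent sign.

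Beyond the lists, the 15 largest higher differences also held Fgf13, Serpine2, Nrn1, Crip2, Lmo3 and Kcns3. Fgf13, which binds voltage-gated sodium channels inside the cell, was at 1417, 802, 1047 and 658 TPM against at most 252 TPM in the GABAergic cells, a difference of 7.02. Serpine2, a secreted protease inhibitor, was at 1205, 1392, 1811 and 2980 TPM (difference 6.61). Cells 44 and 48 lay within the GABAergic range of 0 to 1575 TPM and cells 75 and 86 above it. Nrn1, neuritin, was at 9.43, 195, 93.2 and 304 TPM, and the highest GABAergic cell at 2.90 TPM, a difference of 6.34. Kcns3, a silent subunit of delayed rectifier potassium channels, was at 110, 24.8, 106 and 84.8 TPM (difference 5.94). Genes above every GABAergic cell also included Agpat4, Atp6v1g1, Fam210b, Gm5868, Ntn1, Rbms3, Slc16a3, Sult5a1 and Tmem255a, named here because they are among the 23. Of these, Atp6v1g1, a subunit of the vesicular proton pump, was the most even at 1249 to 1583 TPM in the 4 cells (SD 0.17 on the log2 scale), with a difference of 1.95 that is just short of a call.

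Genes of GABA synthesis, storage and reuptake were lower in 4 of 8 cases and higher in 0, with a median difference of -2.12. Lower calls made up 4.83% of all genes compared and higher calls 1.81%. Gad1 was listed at 0 in cells 44 and 86, at 0.691 TPM in cell 75 and at 53.1 TPM in cell 48, against a GABAergic range of 34.2 to 1987 TPM (median 909). The difference was -7.92, and cell 48 alone lay inside the GABAergic range, at its lower end. Gad2 was listed at 0 in cells 44 and 75, and was at 3.95 TPM in cell 48 and 0.107 in cell 86, below every GABAergic cell (19.2 to 1148 TPM), a difference of -7.53. Slc32a1, the vesicular GABA transporter, was at 0.552 TPM in cell 48 and listed at 0 in the rest (GABAergic median 24.1 TPM), a difference of -4.42. Abat, which breaks GABA down, was at 134, 114, 96.2 and 172 TPM in cells 44, 48, 75 and 86 and was not called. Cell 48 had the highest value of the 4 cells for Gad1, Gad2 and Slc32a1 and levels of the dopamine genes (Th, Ddc, Slc6a3 and Slc18a2) within the range of the other 3 cells.

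Among 22 transcription factors of GABAergic midbrain neurons (13 compared), 5 were lower and 0 higher, beside 4.83% and 1.81% of all genes compared. Their median difference was -0.04, since many were at 0 on both sides. Gata3, which specifies these neurons, was listed at 0 in cell 44 and was at 17.2, 9.73 and 2.14 TPM in cells 48, 75 and 86 (GABAergic median 155 TPM), a difference of -3.98. Tal1, its partner in that step, differed by -2.56. Zfpm2, a GATA cofactor, and Six3 were listed at 0 in all 4 cells and differed by -3.31 and -2.86. Lhx5 differed by -2.40.

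The genes of fast-spiking neurons had the lowest median difference of the 18 lists, -3.04, with 13 of 20 lower and 0 higher. Over all genes compared, 4.83% were lower and 1.81% higher. Nefl, the light neurofilament subunit (chr14:68083863-68089095 in GRCm38, within the span that GENCODE M21 gives Nefm, so that reads of either may be assigned to the other), had the largest lower difference of all called genes, -8.96, and was listed at 0 in cells 44 and 48, at 1.18 TPM in cell 75 and at 0.661 in cell 86. Its GABAergic range was 69.2 to 2024 TPM (median 753). The lowest of these values was in cell 5, in which short noncoding genes held 85.62% of the TPM. Nefm, the medium subunit, was at 10.9 TPM in cell 48 and 1.38 in cell 75 and listed at 0 in the rest (difference -5.72). Pvalb, the calcium buffer parvalbumin, was at 4.24 TPM in cell 48 and listed at 0 in the other cells (GABAergic median 340 TPM), a difference of -6.52, though 9 GABAergic cells were not above 1 TPM either. The sodium channel Scn1a was at 6.17 TPM in cell 48 and under 1 TPM in the others, against a GABAergic median of 130 TPM, a difference of -5.41. Its relative Scn8a differed by -2.61.

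Potassium channels that repolarise fast spikes were part of this group. Kcnc1 and Kcnc2 (Kv3.1 and Kv3.2) differed by -2.81 and -4.98. Kcnc1 was listed at 0 in cell 44 and at 6.58, 22.9 and 1.60 TPM in cells 48, 75 and 86 (GABAergic median 35.7 TPM). Kcna1 was listed at 0 in all 4 cells (difference -4.96), and Kcna2 was at 9.01 and 20.7 TPM in cells 48 and 86 and at 0.182 TPM or less in the others (difference -3.51). The vesicle proteins Syt2 and Vamp1 of fast synapses differed by -2.67 and -3.26. With only cells 48 and 86 on the dopaminergic side, 13 of the 20 were lower, beside 479 of all 14141 genes then compared, and the median difference was -2.85. They were not all the same genes, since Kcna2 and Vamp1 lost their calls and Nefh and Esrrg gained them. Against the 15 GABAergic cells with the fewest genes, 11 of the 20 were lower, beside 270 of all 10139 genes then compared. The median difference was then -2.14, and Syt2 and Vamp1 lost their calls.

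Further genes among the 15 largest lower differences belong to no list used here. Epb4.1l3, which links membrane proteins to the cytoskeleton, was listed at 0 in all 4 cells, against 2.95 to 680 TPM (median 211) in the GABAergic cells, a difference of -7.52. Spock3, a secreted proteoglycan, was at 0.203 TPM in cell 86 and listed at 0 in the rest (GABAergic median 262 TPM), a difference of -7.67. Lgi3, a secreted protein of the LGI family, Syndig1, which binds AMPA receptors, and Gm13629 were listed at 0 in all 4 cells, with differences of -6.01, -5.95 and -6.30. None of these 3 separated the sides fully, since 4 to 8 of the GABAergic cells were not above 1 TPM either. Gas6, a ligand of TAM receptors, and Arpp21, a phosphoprotein regulated by cyclic AMP, differed by -5.88 and -5.84, and the noncoding A230070E04Rik by -6.27. Rgs10 differed by -6.26, with 37.6 TPM in cell 48 and 0 in the others.

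**Figure D4:**
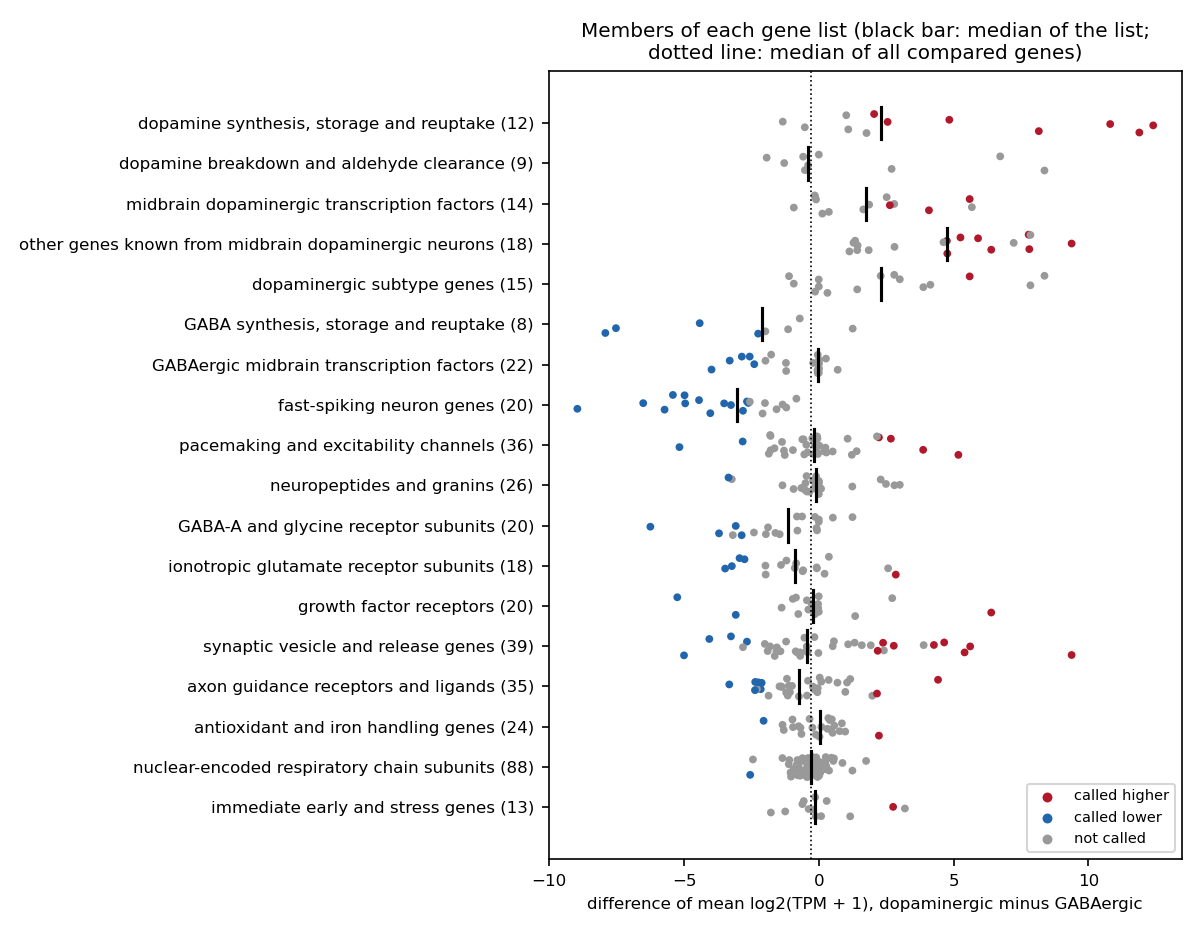
Difference of mean log2(TPM + 1), dopaminergic minus GABAergic (x axis), for each member of 18 gene lists (rows, with the number of members found), with genes called higher in red and lower in blue. The black bar is the median of a list, from 4.76 for other genes known from dopaminergic neurons to -3.04 for fast-spiking genes, and the dotted line is the median of all genes compared, -0.30.

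Of 36 channels of pacemaking and excitability (34 compared), 4 were higher and 2 lower, with a median difference of -0.16. The shares over all genes compared were 1.81% higher and 4.83% lower, and the lower count is near its share. The A-type potassium channel Kcnd3 (Kv4.3) was at 45.9, 107, 80.7 and 103 TPM in cells 44, 48, 75 and 86 (GABAergic median 18.3 TPM), a difference of 2.67. Its auxiliary subunit Kcnip3 was at 152, 10.2, 180 and 40.3 TPM (difference 5.18), whereas the related Kcnip1 was listed at 0 in all 4 cells and had a GABAergic median of 61.9 TPM (difference -5.17). Kcnip3 overlapped between the sides, since GABAergic cells reached 80.2 TPM, and the other two genes of the family, Kcnip2 and Kcnip4, differed by -0.57 and -1.81 and were not called. Scn3b, a sodium channel beta subunit, differed by 3.87 and the R-type calcium channel Cacna1e by 2.23. The SK channel Kcnn2 was listed at 0 in all 4 cells (difference -2.82), while Kcnn3 was at 16.9 and 19.7 TPM in cells 48 and 86 and listed at 0 in cells 44 and 75. The L-type channel Cacna1d, discussed for dopaminergic pacemaking, was not called. It was at 1.40 to 4.35 TPM in the 4 cells, near the GABAergic median of 1.61 TPM. Nalcn, the sodium leak channel, was at 1.93, 28.1, 0 and 29.6 TPM (GABAergic median 42.6 TPM) and was not called.

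Receptors for fast transmitters held more lower than higher calls, as did all genes compared (4.83% lower and 1.81% higher). Of 20 GABA-A and glycine receptor genes (17 compared) 4 were lower and 0 higher, with a median difference of -1.13. Gabrb2 differed by -3.70 and the glycine receptor Glra1 by -3.08. This list held 2 higher and 4 lower calls with only cells 48 and 86, and its median was then -0.31. With those cells, 1214 of all 14141 genes compared were higher and 479 lower. Of 18 ionotropic glutamate receptor subunits (17 compared) 4 were lower, namely Grin1, Grin2a, Grin3a and Grik2, and 1 was higher, Grik3. The median of the 18 was -0.87, and with only cells 48 and 86 it was -0.079, with 2 higher and 4 lower. Grik3, a kainate receptor subunit, was at 4.63, 4.79, 19.7 and 14.6 TPM in cells 44, 48, 75 and 86 against a GABAergic median of 0, a difference of 2.86. Grin2a and Grin3a, NMDA receptor subunits, were listed at 0 in all 4 cells (differences -3.23 and -2.94).

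The synaptic vesicle list went both ways, with 8 of 39 genes (38 compared) higher, 4 lower and a median difference of -0.45. Across all genes compared, 1.81% were higher and 4.83% lower. Sv2c, the SV2 form found in basal ganglia, was at 13.2, 115, 30.4 and 191 TPM in cells 44, 48, 75 and 86 against at most 5.12 TPM (difference 5.62). Sv2c was above 1 TPM in under 4 GABAergic cells. It was thus compared only through the dopaminergic cells, which largely fixed its call. Cadps2, a vesicle priming factor, differed by 5.41, and the synaptotagmins Syt5 and Syt4 by 4.27 and 2.78. Cplx2, Bsn and Sncg were also called higher. Syn2, Synpr (-4.06), Vamp1 and Syt2 were lower, and Syn2, a synapsin, was at 0, 0.392, 6.28 and 5.77 TPM against a GABAergic median of 120 TPM. Snap25, which every neuron uses for release, was at 2850 to 3365 TPM in the 4 cells and differed by -0.16.

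Growth factor receptors and guidance genes held calls in both directions, beside 1.81% higher and 4.83% lower over all genes compared. Among 20 growth factor receptors (14 compared) Ret was higher, and Ntrk3 (the neurotrophin-3 receptor, difference -5.25) and Gfra2 (-3.08) were lower and listed at 0 in all 4 cells. Of 35 axon guidance genes (32 compared) 2 were higher and 6 lower, with a median difference of -0.74. Ntn1, the guidance ligand netrin-1, was at 24.1, 14.2, 24.8 and 26.2 TPM, above every GABAergic cell (highest 3.68 TPM), a difference of 4.42, and Robo2 differed by 2.16. Nrp1, the semaphorin receptor neuropilin-1, was listed at 0 in all 4 cells (difference -3.32). Epha7, Ephb1, Plxna2, Plxna4 and Sema3f were the others lower, by -2.12 to -2.37.

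Of 88 nuclear genes matched to respiratory chain subunits and their assembly (82 compared), 1 (Ndufaf2, difference -2.55) was lower and 0 were higher, and their median difference was -0.29, close to that of all genes. Among 24 antioxidant and iron genes Prdx6 was higher (2.23) and Gsr lower (-2.05), with a median of 0.06. Among 13 immediate early and stress genes (11 compared) Jun was higher (2.76). Among 26 neuropeptides and granins (13 compared) Chga was lower (-3.35), being listed at 0 in cell 44 and at 171 to 272 TPM in the others, below the GABAergic median of 708 TPM. Scg2, another granin, was at 263, 2287, 2059 and 1702 TPM (GABAergic median 288 TPM) and was not called because of cell 44. Over all genes compared, 1.81% were higher and 4.83% lower. A single call in any of these lists is therefore not read as a result about the list.

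The 4 cells were not alike, and cell 44 was listed at 0 for several genes that were high in the other 3. Aldh1a1, an aldehyde dehydrogenase that marks ventral nigral dopaminergic neurons, was at 10237, 9146 and 8405 TPM in cells 48, 75 and 86, above Th in cells 48 and 75, and listed at 0 in cell 44. The gene lies at chr19:20492715-20643465 in GRCm38 by GENCODE M21. Its neighbour Aldh1a7 (chr19:20692953-20727562), which shares much of its sequence so that short reads can be split between them, was at 685, 440 and 542 TPM and again listed at 0 in cell 44. Chrna6, the nicotinic subunit typical of dopaminergic neurons, was at 1269, 1494 and 2016 TPM in the same 3 cells and listed at 0 in cell 44. Calb2, calretinin, was at 812, 603 and 441 TPM there and listed at 0 in cell 44. Whether these transcripts were absent from cell 44 or missed there was not tested. Sox6, a factor of ventral nigral neurons, was at 16.4, 6.31 and 25.1 TPM in the 3 cells and at 0 in cell 44.

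Anxa1, which marks a part of the Aldh1a1-positive neurons, split the cells differently. It was at 4947 TPM in cell 75 and 5021 TPM in cell 86, at 114 TPM in cell 48 and listed at 0 in cell 44 and in all 62 GABAergic cells. The pair with high Anxa1 came from day 16 and the pair with low Anxa1 from day 14, and age and cell cannot be told apart here. Lmo3, a LIM-only cofactor, was at 981, 813 and 879 TPM in cells 48, 75 and 86 and at 77.4 TPM in cell 44, though it was called higher. Cck, the neuropeptide cholecystokinin, was at 83.0 and 62.01 TPM in cells 44 and 48 and listed at 0 in cells 75 and 86. Lpl, lipoprotein lipase, was at 76.3 TPM in cell 44 and at 1.63 to 4.99 TPM in the others. Calb1, Otx2, Vip and Slc17a6, known from other dopaminergic subtypes, were at or near 0, with 2.70 TPM of Calb1 in cell 48 as the highest value. Of the 15 subtype genes, 9 were compared and 1, Satb1, was called higher, beside 1.81% of all genes compared. With only cells 48 and 86, 6 were called higher, beside 1214 of all 14141 genes then compared.

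**Figure D5:**
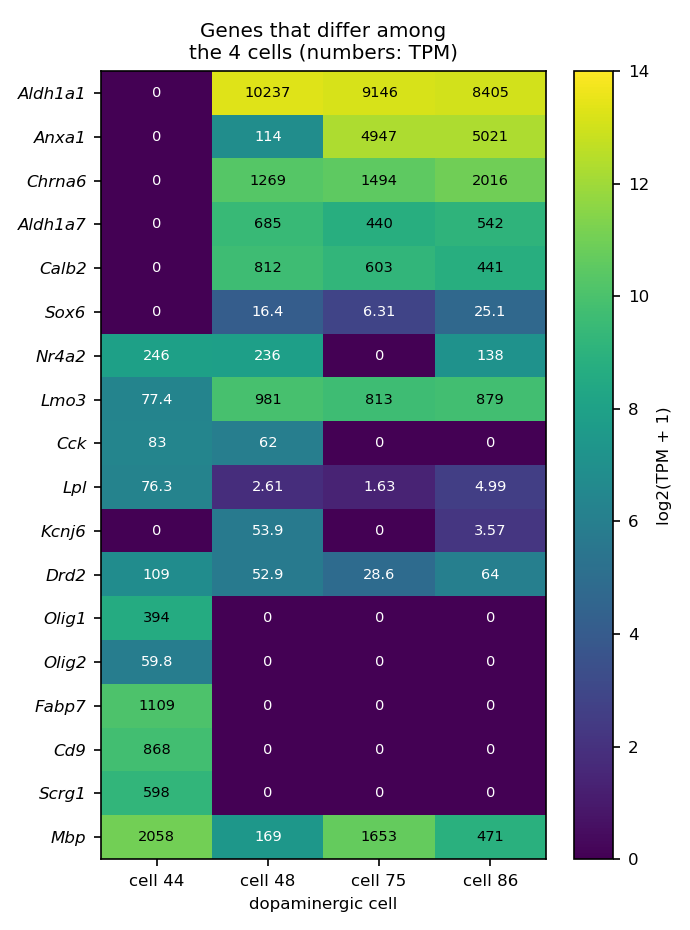
Level of 18 genes in the 4 dopaminergic cells (columns), as colour in log2(TPM + 1) and as printed TPM. Cell 44 is listed at 0 for Aldh1a1, Chrna6, Aldh1a7 and Calb2 and alone holds Olig1, Olig2, Fabp7, Cd9 and Scrg1, and Anxa1 is high in cells 75 and 86.

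Across all genes, 102 genes were listed at 0 in cell 44 and above 100 TPM in each of the other 3 cells, against 59 for cell 75 and 0 for cells 48 and 86. The reverse pattern, above 100 TPM in 1 cell and 0 in the others, was met by 41 genes for cell 44, 15 for cell 75, 3 for cell 48 and 3 for cell 86. Among the 41 were glial genes, Fabp7 at 1109 TPM, Cd9 at 868, Scrg1 at 598 and Olig1 at 394. They are named because they were seen to lead this group. Of the 5 markers of oligodendrocyte precursors, 4 were above 1 TPM in cell 44 (Olig1, Olig2 at 59.8, Gpr17 at 42.7 and Pdgfra at 14.7 TPM) and 0 in each of the other 3 cells. Their mean log2(TPM + 1) was 4.79 in cell 44, above the highest GABAergic cell at 1.88, and at most 0.20 in the other dopaminergic cells. The part of these transcripts in the other values of cell 44 was not tested, and without cell 44 there were 515 genes higher and 701 lower.

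Apart from the markers of oligodendrocyte precursors and of cholinergic neurons in cell 44, the mean of each list of markers of another cell type lay within the GABAergic range in all 4 cells. Mean log2(TPM + 1) over 8 oligodendrocyte markers was 4.59 in cell 44, 3.07 in cell 48, 4.29 in cell 75 and 2.73 in cell 86, within the GABAergic range of 0.74 to 7.21. Mbp, the myelin basic protein, was at 2058, 169, 1653 and 471 TPM, around the GABAergic median of 795 TPM. Over 9 astrocyte markers the 4 cells lay at 1.86 to 4.03 and the GABAergic cells at 1.31 to 6.84, with Slc1a2 called higher (2.33) and Aldoc lower (-2.49). Microglial markers reached 0.72 in cell 48, and mural, glutamatergic and noradrenergic markers 0.37 or less. Endothelial, serotonergic and red blood cell markers were listed at 0 in all 4 cells. Chat, the cholinergic enzyme, was at 15.4 TPM in cell 44 and 0.805 in cell 75, without Slc18a3 or Slc5a7, so that the mean of the 3 cholinergic markers was 1.34 in cell 44 against at most 0.59 in the GABAergic cells. Of 7 markers of neurons in general, only Nefl was lower.

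Over the 14178 genes, Pearson's r of log2(TPM + 1) between pairs of dopaminergic cells ran from 0.55 (cells 44 and 75) to 0.78 (cells 48 and 86). The same genes enter each pair, and the pair with the highest r had the most fragments. The median r with the 62 GABAergic cells was 0.55 for cell 44, 0.67 for cell 48, 0.56 for cell 75 and 0.67 for cell 86, and each dopaminergic cell had a higher r with at least 1 other dopaminergic cell than with any GABAergic cell. With cells 44 and 75, however, r was 0.60 and 0.63 for cell 48 and 0.61 and 0.64 for cell 86, below the median of these cells with the GABAergic cells. With the mean of the 62 GABAergic cells, r was 0.67, 0.82, 0.69 and 0.82 for cells 44, 48, 75 and 86, and with the mean of the other 3 dopaminergic cells it was 0.66, 0.78, 0.69 and 0.79. Among GABAergic cells, r had a median of 0.65 over 1891 pairs. The share of called genes that a single cell met ran the other way and was higher in cells 44 and 75. The calls were made from these same cells, so these shares are partly fixed by the rule and are no separate test of likeness. Cells 44 and 75 also listed no transcript for more of the genes called lower, as given above. The part of this in the shares was not tested. Of the 256 genes called higher, 84.77% were at least 2 above the GABAergic mean in cell 44, 72.66% in cell 48, 85.94% in cell 75 and 73.83% in cell 86. Of the 685 called lower, 90.22% were at least 2 below it in cell 44, 54.45% in cell 48, 94.31% in cell 75 and 51.68% in cell 86.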

How the data were processed

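Individual cells were lysed, and cDNA was made and fragmented by the Smart-seq2 protocol, which keeps no strand and has no molecular identifiers. Read pairs (25 bases each) were mapped by the authors to mm10 (GRCm38) with TopHat2 2.0.10 and quantified with Cufflinks 2.2.1 and Cuffnorm. Cells were kept at 50% of reads aligned and 100000 or more aligned pairs. The deposited values are FPKM, normalized by the authors for transcript length and mapped fragments, of 22815 genes in 80 cells. The gene annotation is not given in the sources used here. Reads of overlapping genes, and of near-identical genes, cannot be told apart.

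FPKM of each cell were scaled to a sum of 1000000 (TPM), and log2(TPM + 1) was used throughout, with a pseudocount of 1. Genes above 1 TPM in at least 4 of the 66 cells were compared across all genes. A gene was called where the means differed by at least 2 and all 4 dopaminergic cells lay on the same side of the GABAergic median. The labels name no animal, so cells of a side are 1 sample and no test was made, and an SD over cells is cell-to-cell spread. The call script was tested on simulated data. Fragments per cell were estimated from the spacing of low FPKM over 1083 genes with long single transcripts, on the assumption that the lowest step is 1 fragment.

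The members, gene lists and motifs were chosen with earlier results of these data known. The text names the main markers of dopaminergic and GABAergic neurons, the 15 largest called differences in each direction, called members of each list or otherwise up to 4 with the highest mean, and the 8 genes with the largest SD over the 4 cells; other genes were named after their values were seen. Short noncoding genes were left out of these rankings. Some genes that these rules select are not reported here. Promoters came from RefSeq (GRCm38.p6) and gene positions from GENCODE M21 (GRCm38), the same build as the files. Alternatives were another pseudocount, FPKM, other filters, other sets of cells, medians, and a call at a difference of 1. Python 3.11.15, pandas 2.3.3, numpy 2.4.6 and matplotlib 3.10.9 were used.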

Additional observations from a re-analysis of the deposited data

Results flagged for a closer look

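In 15 of 68 groups of 4 values, 1 dopaminergic cell lay far from the other 3. Chance marks about 1 group in 20 among values drawn alike, but the 68 groups include genes chosen with their values known, and 1 value above 0 beside 3 at 0 is always marked, so the count is not read against chance. Cell 44 stood low in Aldh1a1 (0 TPM), Chrna6 (0 TPM), the brain cytoplasmic RNA Bc1 (0 TPM, against 635, 778 and 2050 TPM) and Lmo3 (77.44 TPM). It stood high in Sncg (4589.29 TPM, against 1625 to 1767 TPM) and in the mean log2(TPM + 1) of oligodendrocyte precursor markers (4.79).

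Cell 48 stood high in genes of the GABAergic side. Gad1 was at 53.08 TPM there, Gad2 at 3.95 TPM and Pvalb at 4.24 TPM. Rgs10, a regulator of G protein signalling, was at 37.61 TPM and the noncoding A230070E04Rik at 15.8 TPM, both listed at 0 in the other 3 cells. Its mean log2(TPM + 1) of microglial markers was 0.72, which came from C1qc at 17.3 TPM and from Cx3cr1 at 0.807 TPM. In cell 86, Arpp21 was at 2.64 TPM and Spock3 at 0.2 TPM, and both were listed at 0 in the other 3 cells. In cell 75, Mrps21, a mitochondrial ribosome protein, was listed at 0 TPM, against 426 to 1274 TPM in the others.

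Outside the comparison, the GFP-negative cell 68, which the Th limit left out, had a mean log2(TPM + 1) of Th, Ddc, Slc6a3 and Slc18a2 of 3.68, above the highest of the 62 GABAergic cells at 3.13. The mean came from Ddc at 133 TPM, Slc18a2 at 22.4 TPM and Th at 7.73 TPM, with Slc6a3 listed at 0. Of 38 genes, 0 were higher in the cells of one age and lower in those of the other. For called genes, whose 4 dopaminergic cells all lie on one side of the GABAergic median, this was largely fixed by the call.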

How the results depend on the processing

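The number of calls depended on which cells were used. Leaving out 1 dopaminergic cell at a time gave 325 to 546 genes higher and 617 to 1251 lower, against 256 and 685. Without cell 44 there were 515 higher and 701 lower, without cell 75 546 and 617, without cell 48 325 and 1251, and without cell 86 333 and 1240. Above every GABAergic cell were 21 to 36 genes (36 without cell 44) in place of 23, and below every one 3 to 5 (5 without cell 48) in place of 3. A call asks less of 3 cells than of 4 by construction. With only cells 48 and 86, chosen after the data were seen, 1214 genes were higher, 479 lower and 56 above every GABAergic cell; of the 256 and 685 genes, 185 and 347 were called again. Genes above 1 TPM in under 4 of those 64 cells, Slc10a4, Sv2c and Gucy2c among them, were then not compared. With the 15 GABAergic cells of fewest genes, also chosen afterwards, 602 were higher, 270 lower and 46 above all.

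All 72 GFP-positive cells gave 394 higher, 419 lower and 0 below all, so that 48.5% of calls were higher in place of 27.2%. A pseudocount of 0.1 gave 1104 lower, a difference of 1 gave 539 higher and 1237 lower, a filter of 10 cells left 11 genes above all, and within the ages of the dopaminergic cells 7 were below all. Leaving short noncoding genes out of the sum gave 25 genes above all and 4 below all.

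Medians of lists moved by more than the SD over the 4 cells as follows. At a pseudocount of 0.1 they were 3.44 for dopamine synthesis, 7.42 for other dopaminergic genes, -1.94 for GABA-A and glycine receptors and -1.31 for axon guidance. With medians in place of means they were -0.22 for GABA-A and glycine receptors, 0 for axon guidance and for neuropeptides and -0.43 for the respiratory chain. With only cells 48 and 86 they were -0.31 for GABA-A and glycine receptors, -0.079 for glutamate receptors, 0.32 for antioxidant genes, 0.12 for dopamine breakdown and 0.23 for vesicle genes. With the 15 GABAergic cells of fewest genes they were -0.17 for GABA-A and glycine receptors, 0.34 for antioxidant genes, 3.21 for dopamine synthesis, 0 for neuropeptides and 0.047 for the respiratory chain. All 72 GFP-positive cells gave 0.36 for antioxidant genes and 0.11 for the respiratory chain, leaving short noncoding genes out of the sum gave -0.38 for the respiratory chain, and cells of the same ages gave 0 for neuropeptides. The dopamine breakdown median, -0.40 over all 4 cells, ran from 0 to 0.14 when 1 cell was left out (0.14 without cell 75). The cause of these shifts was not tested.

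Of 2145 values of the 143 named genes under these alternatives, 1770 stayed within the SD over the 4 cells, 375 moved further, and 0 of the called genes changed sign. Called genes were chosen for a difference of at least 2 with all 4 cells on one side, so a change of sign was hardly possible. No paired analysis was possible because the result comes from no test and the cell numbers pair no cells.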

Other observations

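GFP-positive cell 18, left out of the comparison with 1271 genes above 1 TPM, held Th at 552.6 TPM, while Ddc, Slc6a3, Slc18a2, Gad1 and Gad2 were listed at 0.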
